A study of Mus musculus with 14 samples.

Results

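Mitochondrial ribosomal proteins are the nucleus-encoded proteins of the ribosome that works inside mitochondria. Their genes were taken by symbol from the table of read counts, as every gene named Mrpl or Mrps followed by a number and, in some cases, the letter a or b. This gave 77 of the 40800 genes in the table, of which 49 have an Mrpl and 28 an Mrps symbol. For a symbol with several transcripts, the transcript with the highest total over the 14 libraries stood for the gene. By the place of their proteins in mammalian mitoribosomes, 51 members belong to the large subunit and 25 to the small subunit. Mrps30 and Mrps18a count among the large subunit proteins in spite of their symbols, and Mrps36, now known mainly as a subunit of the oxoglutarate dehydrogenase complex, was placed in neither subunit.

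Total RNA of mouse embryonic fibroblasts (MEFs), connective tissue cells cultured from mouse embryos, gave 14 libraries that fall into 7 groups of 2. The groups were MEFs kept for 3, 6 or 12 h in medium free of amino acids, MEFs kept for 3, 6 or 12 h in medium free of glucose, and control MEFs taken at 0 h. All cells had been plated in high glucose medium with serum. Both starvation media held dialyzed serum, and starved cells were washed, trypsinised and frozen in dialyzed serum. Control cells were frozen in ordinary serum, so each comparison with the control includes this handling as well as the missing nutrient. The labels name no strain or genotype of the MEFs and leave it unsaid whether both libraries of a group stem from different cultures. The p-values therefore measure only the spread between these libraries, which may be technical.

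The mitoribosome makes the few proteins encoded by mitochondrial DNA, all of them core subunits of the respiratory chain and ATP synthase. Its RNAs come from mitochondrial DNA, while all its proteins are encoded in the nucleus, made on cytosolic ribosomes and imported, so that its assembly needs both genomes. Compared with bacterial ribosomes it has less RNA and more protein, and many of its proteins have no bacterial counterpart. Genes for mitochondrial translation are known to be repressed or induced with growth and nutrient signals, among others through mTORC1, MYC and the factors NRF1, GABP (an ETS family factor) and YY1. Of the members, 45 have a bacterial counterpart and 31 are specific to mitochondria.

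The libraries held 35270767 to 55349659 reads, and each member had between 146 and 5733 reads in a library. All 77 members passed the filter on low counts. Levels are given as CPM, read counts relative to the TMM-scaled size of each library, and fold changes as log2 of starved over control unless stated otherwise. A gene was called changed at an adjusted p under 0.05 in edgeR's quasi-likelihood test, adjusted over 17696 genes within a comparison. Between replicates the biological coefficient of variation was 5.78%. Of the fibroblast markers, collagen I, fibronectin and vimentin transcripts were abundant, but Lum was at 0 reads in all libraries and Thy1 and Dcn reached at most 2 and 18 reads. The macrophage markers Adgre1 and C1qa, the adipocyte marker Cidec and the erythroid marker Hbb-bs were at 0 reads throughout. Summed over each list, epithelial, adipocyte and erythroid markers stayed at or under 0.345 CPM in every library. Some of the other marker sums moved with starvation. The 5 endothelial markers, almost all from Kdr, summed to 13.7 to 23.5 CPM in the libraries without amino acids and 12.6 to 23.0 CPM in those without glucose, against 4.21 and 5.08 CPM in control cells. The 6 macrophage markers, almost all from Csf1r and Cd68, summed to 15.1 to 23.9 CPM without amino acids and 16.8 to 22.0 CPM without glucose, against 14.9 and 14.4 CPM in control cells. The 4 neural markers summed to 0.834 to 2.97 CPM without amino acids and 0.106 to 0.52 CPM without glucose, against 0.131 and 0.219 CPM in control cells. Among them Elavl3 reached 2.83 CPM and Syp 0.446 CPM, and Sox10 and Snap25 had at most 2 reads. The 4 skeletal muscle markers summed to 0.699 to 5.78 CPM without amino acids and 1.58 to 5.26 CPM without glucose, against 3.21 and 2.89 CPM in control cells. Among them Myod1 reached 4.82 CPM and Acta1 0.92 CPM, and Myog and Ckm had at most 8 and 6 reads. The part of these shifts in the members' levels was not tested.

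Levels per kilobase of the counted transcript spanned a wide range among proteins that share an assembly. In control cells they ran from 5.63 CPM per kb for Mrps35 to 136 CPM per kb for Mrpl54. Over all 14 libraries the highest mean levels were 150 CPM per kb for Mrpl54, 79.7 for Mrpl28 and 77.1 for Mrpl42, and the lowest were 6.76 for Mrps14, 5.24 for Mrpl17 and 4.64 for Mrps35. All 6 encode subunits of the assembled particle. The counted transcripts of the last 3 are 2999, 7300 and 4162 bases long and those of the first 3 are 604, 1068 and 666 bases long, and the coverage along these transcripts was not analysed here. Across members the median counted length was 1316 bases, from 418 to 7300, against 2604 bases over all genes tested.

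Promoter sequences are shown for 4 members on which later results turn. They come from RefSeq (build GRCm38.p6) and run from 250 bases before to 50 bases after the annotated start, 5′ to 3′ on the gene's strand. Mrpl41 (chr2:24975049-24975348, minus strand) had the lowest fold change in amino acid starvation, Mrpl12 (chr11:120484387-120484686, plus strand) encodes the stalk protein described with it, Mrpl51 (chr6:125191950-125192249, plus strand) had the lowest fold change after 12 h of glucose starvation, and Mrps11 (chr7:78782881-78783180, plus strand) shares its promoter region with another member, Mrpl46. Capitals mark matches, on either strand, to the letters searched for NRF1, ETS factors and YY1.
Mrpl41: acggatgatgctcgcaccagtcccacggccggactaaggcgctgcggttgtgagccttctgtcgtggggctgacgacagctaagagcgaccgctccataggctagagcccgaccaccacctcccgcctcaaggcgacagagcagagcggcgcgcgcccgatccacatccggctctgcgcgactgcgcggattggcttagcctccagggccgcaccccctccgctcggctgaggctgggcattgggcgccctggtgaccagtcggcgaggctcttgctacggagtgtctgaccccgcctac
Mrpl12: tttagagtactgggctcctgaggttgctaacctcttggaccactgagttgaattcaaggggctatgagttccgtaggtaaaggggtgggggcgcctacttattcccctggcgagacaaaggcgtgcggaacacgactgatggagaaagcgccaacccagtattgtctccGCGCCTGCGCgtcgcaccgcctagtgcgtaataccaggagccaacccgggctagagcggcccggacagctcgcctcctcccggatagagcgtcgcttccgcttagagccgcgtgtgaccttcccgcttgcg
Mrpl51: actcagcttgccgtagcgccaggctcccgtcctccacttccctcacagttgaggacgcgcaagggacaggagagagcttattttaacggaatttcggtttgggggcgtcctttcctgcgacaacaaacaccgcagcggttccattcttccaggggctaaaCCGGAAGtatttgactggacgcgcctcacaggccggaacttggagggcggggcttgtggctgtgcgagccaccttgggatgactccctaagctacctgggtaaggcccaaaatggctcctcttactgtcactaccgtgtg
Mrps11: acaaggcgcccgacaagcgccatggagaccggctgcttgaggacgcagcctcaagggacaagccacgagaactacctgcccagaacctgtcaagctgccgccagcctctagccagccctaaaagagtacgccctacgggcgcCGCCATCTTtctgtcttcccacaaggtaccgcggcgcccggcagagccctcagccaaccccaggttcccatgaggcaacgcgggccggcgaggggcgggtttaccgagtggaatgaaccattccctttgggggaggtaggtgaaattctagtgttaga
The Mrpl12 window holds the NRF1 letters, the Mrpl51 window the ETS letters and the Mrps11 window the YY1 letters, while the Mrpl41 window holds none of them.

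Windows were found for 68 of the 77 members, 74 in all, and were set beside 14791 windows of tested genes. They were also set beside all 32544 RefSeq windows, which were not limited to genes in the table of counts. The YY1 letters AAGATGGCG stood in 10.8% of the member windows, 2.63% of the windows of tested genes and 1.41% of all windows. The ETS letters CCGGAAG stood in 33.8% of the member windows, 16% of those of tested genes and 8.91% of all. The NRF1 letters, GCGCA, any base and then GCGC, stood in 17.6% of the member windows, 8.86% of those of tested genes and 4.63% of all. The E-box CACGTG, bound by MYC and other factors, stood in 8.11% of the member windows, 9.43% of those of tested genes and 7.17% of all. Both strands were searched, no 2 of these motifs contain each other, and a match is a description of letters and not a binding site. For the ETS letters, the most frequent, the median log2 fold change of the 25 members with them was −0.42, −0.44 and −0.16 after 3, 6 and 12 h without amino acids, and that of the 43 members with a window and without these letters was −0.37, −0.43 and −0.35. After 3, 6 and 12 h without glucose the medians were −0.07, −0.03 and 0.07 with and −0.04, 0.05 and 0.19 without the letters. Neither set was the lower one in all 6 comparisons with the control. The split was not tested.

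Without amino acids, most mitochondrial ribosomal protein mRNAs were lower than in control cells. After 3 h of amino acid starvation 55 of the 77 members were lower and 4 higher, where 32.1% of all genes tested were called lower and 27.9% higher. After 6 h, 51 members were lower and 11 higher, where 33.3% of all genes were lower and 32.3% higher. After 12 h, 42 were lower and 21 higher, where 32.0% of all genes were lower and 34.9% higher. The median log2 fold change of the members was −0.36, −0.42 and −0.26 at 3, 6 and 12 h, and that of all genes tested was −0.07, −0.01 and 0.06. In the members calls of lower levels thus outnumbered calls of higher levels at each time, while both directions were about as frequent among all genes. With library totals in place of TMM, 34 were lower and 26 higher at 12 h, with a median of −0.13.

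Mrpl9, Mrpl38, Mrpl47 and Mrps25 went against the majority and were called higher at each of the 3 times, which share the control libraries. Of these, only Mrpl38 shares no counted exon bases with another gene. Genes on the opposite strand overlap 9.74% of the counted exon bases of Mrpl9, 18.1% of Mrpl47 and 75.6% of Mrps25. Whether counting used strand is not given in the sources used here. The call of Mrpl47 at 3 h was lost without control replicate 1 (log2 fold change 0.12) and without either starved library (0.20 and 0.16). Summed over the 77 genes, the members' level was 2502 and 2578 CPM after 3 h, 2527 and 2583 CPM after 6 h and 2896 and 2981 CPM after 12 h, against 3274 and 3214 CPM in the control libraries. With TMM scaling, no library without amino acids reached the level of a control library. As a share of all reads, the members made up 0.336% and 0.343% after 12 h, against 0.344% and 0.339% in control cells, so these libraries overlapped. The shares after 3 and 6 h stayed under both control libraries, at 0.233% to 0.257%. In bulk RNA, fewer cells of a kind and less RNA per cell cannot be told apart. The 10 fibroblast markers summed to 7212 and 6935 CPM after 3 h, 4842 and 4723 CPM after 6 h and 2345 and 2141 CPM after 12 h without amino acids, against 7739 and 7015 CPM in control cells, and the part of that change in the members' levels was not tested.

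**Figure D1:**
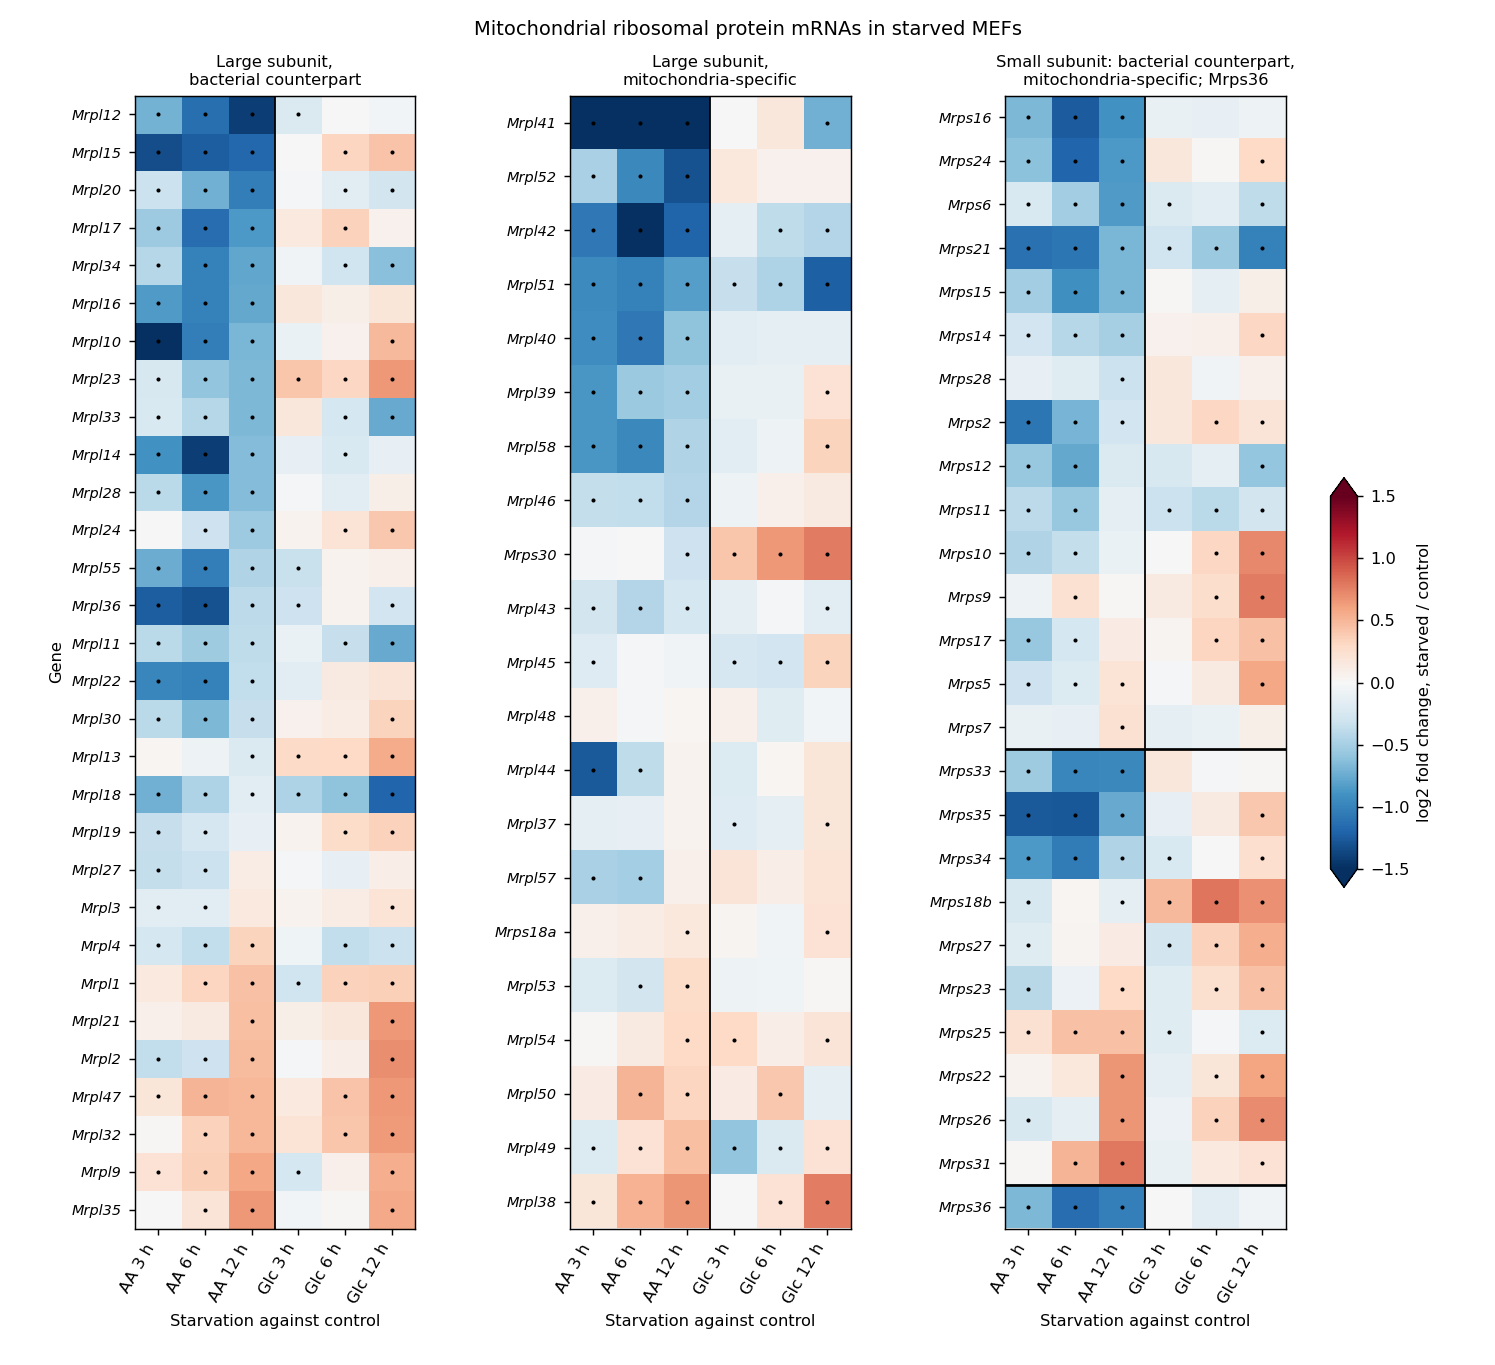
Log2 fold change of each of the 77 members against control cells after 3, 6 and 12 h of amino acid (AA) and glucose (Glc) starvation, in panels by subunit and class, with members in the order of their fold change after 12 h of amino acid starvation. Colours run from −1.5 (blue) to 1.5 (red), values beyond are drawn in the end colour, and dots mark an adjusted p under 0.05. Blue fields prevail on the amino acid side, where 55, 51 and 42 members were lower, and red fields after 12 h without glucose, where 39 were higher.

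The lowest fold change at each time belonged to Mrpl41, which encodes a mitochondria-specific protein of the large subunit. Mrpl41 had 3.69 and 4.17 CPM after 3 h, 3.49 and 3.83 CPM after 6 h and 3.84 and 4.83 CPM after 12 h without amino acids, against 16.3 and 15.2 CPM in control cells. It was near the same low level in all 6 libraries, which stood far under both control libraries. The log2 fold changes were −2.004, −2.10 and −1.86 with standard errors of 0.15, 0.15 and 0.14 and edgeR adjusted p of 1.83e-12, 3.42e-13 and 2.43e-12.

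The ribosomal stalk, which recruits the GTP-hydrolysing translation factors, was among the structures with low mRNAs. Mrpl12, whose protein forms the mobile stalk and also binds the mitochondrial RNA polymerase, had 64.9 and 64.3 CPM after 3 h, 47.7 and 48.4 CPM after 6 h and 39.8 and 39.7 CPM after 12 h, against 109 and 102 CPM in control cells. Its level was lower at each later time, with log2 fold changes of −0.71, −1.13 and −1.41 (SE 0.06 each, edgeR adjusted p 4.76e-11, 1.22e-15 and 6.68e-18). Mrpl10, which anchors the stalk, went the other way over time, with 18.6 and 20.3 CPM after 3 h, 26.7 and 27.1 CPM after 6 h and 33.4 and 35.0 CPM after 12 h, against 55.6 and 54.4 CPM in control cells. All of these libraries stayed under the control libraries, and the log2 fold change of Mrpl10 was −1.499, −1.03 and −0.69 (edgeR adjusted p 9.46e-17, 1.46e-13 and 5.72e-10). Mrpl11 at the stalk base changed less, with log2 fold changes of −0.40, −0.54 and −0.38 (edgeR adjusted p 9.12e-05, 1.05e-06 and 0.000122).

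Large subunit proteins with a bacterial counterpart made up the largest class, and 22, 23 and 19 of its 30 members were lower after 3, 6 and 12 h, with 2, 5 and 8 higher. Counts here and for the classes below stand beside the shares of all genes. These were 32.1%, 33.3% and 32.0% lower and 27.9%, 32.3% and 34.9% higher at these times. Mrpl15, a core protein of this class, had 15.2 and 15.0 CPM after 3 h, 15.8 and 16.5 CPM after 6 h and 15.6 and 18.1 CPM after 12 h, against 36.1 and 39.9 CPM in control cells. All 6 libraries without amino acids lay under 20 CPM and both control libraries over 36. Its log2 fold changes were −1.33, −1.24 and −1.17 (SE 0.08 each, edgeR adjusted p 3.63e-14, 9.43e-14 and 2.02e-13). Mrpl14, at the interface with the small subunit, was lowest after 6 h, at 13.1 and 14.9 CPM against 37.7 and 37.1 CPM in control cells (log2 fold change −1.41, SE 0.09, edgeR adjusted p 8.18e-14). Mrpl20, an early binder of ribosomal RNA, was lower at each later time, with log2 fold changes of −0.33, −0.71 and −1.04 (edgeR adjusted p 0.00011, 1.46e-10 and 4.68e-14). Mrpl2, which lies beside the catalytic centre, was lower at 3 h (log2 fold change −0.37, edgeR adjusted p 0.000189) and higher at 12 h (log2 fold change 0.48, edgeR adjusted p 2.97e-06).

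Among the 21 mitochondria-specific large subunit members, 13, 12 and 10 were lower after 3, 6 and 12 h and 1, 3 and 6 were higher. Mrpl42 had 34.9 and 38.4 CPM after 3 h, 26.5 and 25.8 CPM after 6 h and 32.5 and 34.4 CPM after 12 h, against 76.3 and 78.2 CPM in control cells. Every library without amino acids stayed at or under about 38 CPM, and the log2 fold change was −1.56 at 6 h (SE 0.07, edgeR adjusted p 2.71e-17). Mrpl44, a protein with a ribonuclease III fold, was lowest at 3 h, with 7.02 and 7.31 CPM after 3 h, 13.6 and 12.8 CPM after 6 h and 16.0 and 19.4 CPM after 12 h, against 16.7 and 17.6 CPM in control cells. The log2 fold change was −1.26 at 3 h and −0.38 at 6 h (edgeR adjusted p 1.21e-10 and 0.00278), and at 12 h it was 0.05 with an adjusted p of 0.707, where the starved libraries lay on both sides of the control libraries. Mrpl38, in contrast, had 58.4 and 57.1 CPM after 3 h, 70.1 and 76.9 CPM after 6 h and 78.0 and 84.2 CPM after 12 h, against 52.5 and 49.6 CPM in control cells. Its libraries were above the control libraries at each time, with log2 fold changes of 0.18, 0.53 and 0.67 (edgeR adjusted p 0.0367, 2.15e-07 and 2.24e-09), and the call at 3 h was lost without control replicate 2 (log2 fold change 0.14) and without either starved library (0.16 and 0.20).

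Of the 15 small subunit members with a bacterial counterpart, 12, 12 and 8 were lower after 3, 6 and 12 h and 0, 1 and 2 were higher. Mrps12, a protein of the decoding site, had 14.8 and 12.1 CPM after 3 h, 11.8 and 11.6 CPM after 6 h and 16.3 and 17.7 CPM after 12 h, against 19.9 and 19.8 CPM in control cells. It was lower at 3 and 6 h (log2 fold changes −0.57 and −0.77, edgeR adjusted p 2.24e-05 and 1.39e-07), and at 12 h the log2 fold change was −0.22 with an adjusted p of 0.0518. Mrps21 was lower at each time, with log2 fold changes of −1.11, −1.08 and −0.69 (edgeR adjusted p 1.86e-12, 1.89e-12 and 1.21e-08).

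The 10 mitochondria-specific small subunit members were the most mixed class. Of these, 7, 3 and 4 were lower after 3, 6 and 12 h, and 1, 2 and 5 were higher. Of all genes, 32.1%, 33.3% and 32.0% were lower and 27.9%, 32.3% and 34.9% higher. At 6 h both counts of this class stood under those shares, and a difference between the classes was not tested. The median log2 fold change of its members was −0.24, −0.03 and 0.21. Mrps31 had 24.4 and 24.0 CPM after 3 h, 33.7 and 34.2 CPM after 6 h and 39.9 and 42.6 CPM after 12 h, against 23.3 and 24.3 CPM in control cells. It overlapped the control libraries at 3 h and stood above them from 6 h on, and its log2 fold change of 0.79 at 12 h was the highest of all members there (SE 0.08, edgeR adjusted p 2.48e-10). Mrps22 and Mrps26 were also higher at 12 h, with log2 fold changes of 0.66 and 0.67 (edgeR adjusted p 2.63e-09 and 4.31e-08). Mrps35 was lower, with 9.19 and 10.4 CPM after 3 h, 9.66 and 9.83 CPM after 6 h and 13.5 and 14.3 CPM after 12 h, against 24.9 and 21.9 CPM in control cells. All its libraries without amino acids were under 15 CPM (log2 fold changes −1.26, −1.27 and −0.75, edgeR adjusted p 2.96e-12, 1.29e-12 and 2.47e-08). Mrps36, placed in neither subunit, was lower at each time as well, at −0.67, −1.14 and −1.02 (edgeR adjusted p 6.94e-08, 1.28e-12 and 9.81e-12).

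Without glucose, the members changed less at first and were more often higher by 12 h. After 3 h of glucose starvation 16 of the 77 were lower and 5 higher, where 23.1% of all genes were called lower and 20.3% higher. After 6 h, 13 were lower and 21 higher, where 24.2% of all genes were lower and 23.3% higher. After 12 h, 16 were lower and 39 higher, where 28.0% of all genes were lower and 30.4% higher. The median log2 fold change of the members was −0.04, 0.05 and 0.19 at 3, 6 and 12 h, and that of all genes tested was −0.04, −0.01 and 0.01. At 3 h the members' shares stood close to or under those of all genes, and at 12 h more of them were higher than among all genes. The summed level was 2996 and 3323 CPM after 3 h, 3282 and 3355 CPM after 6 h and 3564 and 3689 CPM after 12 h, against 3274 and 3214 CPM in control cells. The 10 fibroblast markers summed to 8608 and 8348 CPM after 3 h, 7715 and 7613 CPM after 6 h and 5232 and 5268 CPM after 12 h, against 7739 and 7015 CPM in control cells. Their part in the members' levels was not tested. With TMM scaling, the member sums of 3 h straddled the control libraries and those of 6 and 12 h lay above them. As a share of all reads, the members made up 0.282% and 0.310% after 3 h and 0.318% and 0.320% after 6 h. These shares lay under the 0.344% and 0.339% of the control libraries, and only those of 12 h, 0.349% and 0.361%, lay above.

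The results at 3 and 6 h without glucose rested on single libraries. Without replicate 1 of 3 h, 10 members were called higher and 5 lower at 3 h, and without its replicate 2, 2 were higher and 22 lower. Without control replicate 1 the counts were 8 higher and 10 lower, and without control replicate 2 they were 7 and 13. Scaling moved the balance too: RLE factors gave 9 higher and 13 lower at 3 h, and library totals without TMM gave 3 higher and 42 lower. With library totals the counts were 12 higher and 28 lower at 6 h, with a median of −0.08 that turned the sign, and 28 higher and 20 lower at 12 h, with a median of 0.09. That scaling moved the median of all genes by −0.17, −0.13 and −0.10 in the 3 glucose comparisons with the control. The correction for GC and transcript length lowered the median at 12 h to 0.12, with 36 members higher and 17 lower. The median at 6 h was 0.004 without glucose replicate 2 of that time, 0.096 without its replicate 1 and 0.03 without control replicate 2, so no direction can be read from it.

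**Figure D2:**
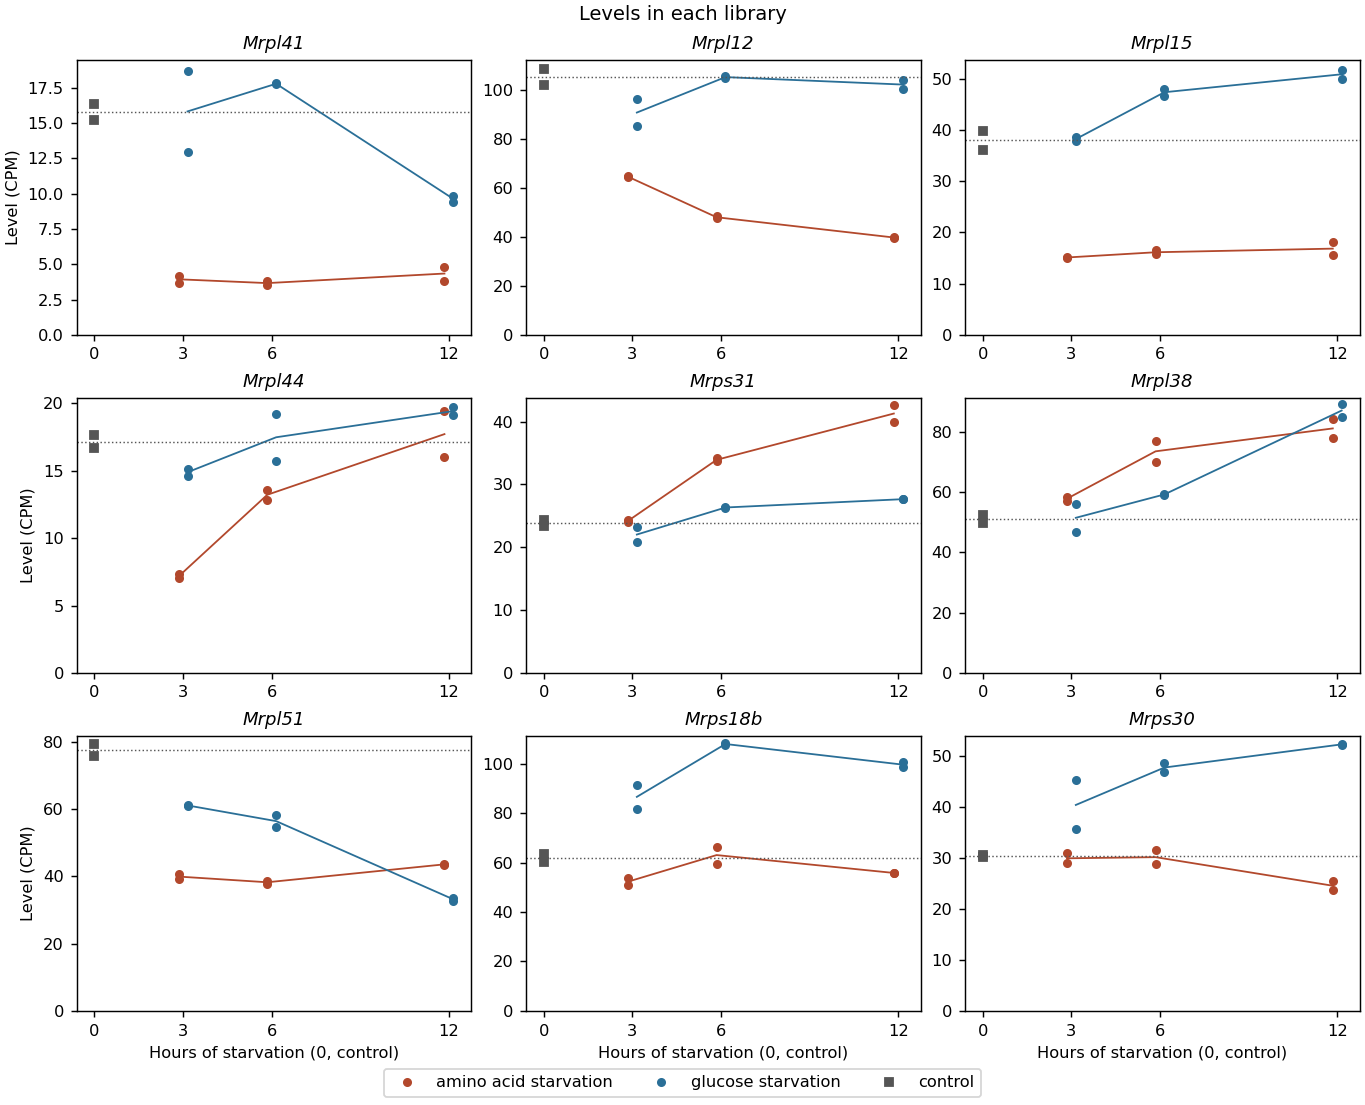
Level (CPM) in each library of 9 members against hours of starvation, with control cells at 0, circles for single libraries, lines through the means and a dotted line at the control mean. Mrpl41, Mrpl12 and Mrpl15 lie far under the control level without amino acids, Mrps31 and Mrpl38 lie above it by 12 h, and Mrpl51 reaches its lowest level, 32.8 and 33.5 CPM, after 12 h without glucose while Mrps18b and Mrps30 lie above the control level at each time without glucose.

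A small set of members was low without glucose. Mrpl51, a mitochondria-specific large subunit protein, had 60.8 and 61.3 CPM after 3 h, 54.7 and 58.1 CPM after 6 h and 32.8 and 33.5 CPM after 12 h, against 75.7 and 79.3 CPM in control cells. Its libraries were under the control libraries at each time and lowest at 12 h (log2 fold changes −0.34, −0.46 and −1.23, SE 0.06, 0.06 and 0.07, edgeR adjusted p 5.57e-05, 6.71e-07 and 8.56e-16). Mrpl18, a protein of the central protuberance whose bacterial counterpart binds 5S ribosomal RNA, had 54.8 and 63.0 CPM after 3 h, 52.3 and 54.7 CPM after 6 h and 35.9 and 35.2 CPM after 12 h, against 80.8 and 81.3 CPM in control cells. It showed the same order of times, with log2 fold changes of −0.46, −0.60 and −1.19 (edgeR adjusted p 1.35e-06, 1.21e-08 and 3.8e-15). Mrps21 followed, at 29.3 and 33.1 CPM after 3 h, 26.0 and 26.5 CPM after 6 h and 18.2 and 20.03 CPM after 12 h, against 39.5 and 37.6 CPM in control cells. Its log2 fold changes were −0.30, −0.55 and −1.01 (edgeR adjusted p 0.00308, 1.91e-06 and 1.28e-11), and the call at 3 h was lost without glucose replicate 1 of that time (log2 fold change −0.22). Without amino acids the log2 fold changes of Mrpl51 were −0.96, −1.02 and −0.83 and those of Mrpl18 were −0.72, −0.46 and −0.16, against the same control libraries. The call of Mrpl18 at 12 h without amino acids (edgeR adjusted p 0.0323) was lost without control replicate 1 (−0.165) and without control replicate 2 (−0.155).

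Others were high without glucose. Mrps18b, a small subunit protein, had 81.7 and 91.5 CPM after 3 h, 108 and 108 CPM after 6 h and 98.5 and 101 CPM after 12 h, against 63.5 and 60.4 CPM in control cells. All 6 libraries stood above the control libraries (log2 fold changes 0.48, 0.80 and 0.69, SE 0.07 each, edgeR adjusted p 5.11e-07, 2.66e-11 and 2.85e-10). Of its counted exon bases 59.1% overlap an antisense gene, and whether counting used strand is not given in the sources used here. Mrps30, a large subunit protein also named for a link to programmed cell death, had 35.6 and 45.2 CPM after 3 h, 48.5 and 46.9 CPM after 6 h and 52.1 and 52.4 CPM after 12 h, against 30.5 and 30.2 CPM in control cells. It was above the control libraries at each time as well (log2 fold changes 0.41, 0.65 and 0.78, edgeR adjusted p 0.000284, 2.98e-07 and 4.83e-09), though at 3 h not without replicate 2 of that time (log2 fold change 0.23). Of the counted exon bases of Mrps30, 18.1% overlap B430218F22Rik on the opposite strand. Mrpl23, at the exit of the peptide tunnel, had log2 fold changes of 0.42, 0.31 and 0.66 (edgeR adjusted p 0.000768, 0.00982 and 7.36e-07). Its call at 6 h was lost without control replicate 2 (0.22) and without replicate 2 of that time (0.28). Mrpl13 was called higher at each time as well, with log2 fold changes of 0.29, 0.29 and 0.55 (edgeR adjusted p 0.00278, 0.00213 and 3.3e-07), and 27.0% of its counted exon bases overlap Mtbp.

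Late increases were most frequent in the mitochondria-specific small subunit class, where 8 of 10 were higher and 1 lower after 12 h without glucose. In the other classes 15 of 30 large subunit members with a bacterial counterpart, 9 of 21 mitochondria-specific large subunit members and 7 of 15 small subunit members with a bacterial counterpart were higher at that time. Of all genes, 30.4% were higher and 28.0% lower. The difference between the classes was not tested. In the mitochondria-specific small subunit class other genes overlap 59.13% of the counted exon bases of Mrps18b, 62.75% of Mrps34 and 22.55% of Mrps27. For Mrps25, the lower member of this class, that share was 75.58%. Mrps9, Mrpl38 and Mrps26 had log2 fold changes of 0.78, 0.77 and 0.71 (edgeR adjusted p 8.99e-10, 2.29e-10 and 2.22e-08). Mrps9 had 46.3 and 52.5 CPM after 12 h without glucose, against 29.2 and 28.2 CPM in control cells. The absence of overlap was a condition for naming it. Mrpl49 moved in both directions, with 43.4 and 48.2 CPM after 3 h, 57.6 and 61.7 CPM after 6 h and 80.7 and 80.05 CPM after 12 h, against 69.2 and 69.3 CPM in control cells. It was lower at 3 and 6 h and higher at 12 h (log2 fold changes −0.60, −0.21 and 0.21, edgeR adjusted p 7.29e-09, 0.00539 and 0.00353), and the call at 6 h was lost without replicate 1 of that time (−0.16). Of the 77 members, Mrpl48 alone was called in none of the 6 comparisons with the control, where its log2 fold changes ran from −0.18 to 0.08, and 24.8% of its counted exon bases overlap Rab6a.

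Amino acid and glucose starvation of the same length share their handling, and here the members were lower without amino acids. At 3 h, 52 of the 77 were lower in amino acid than in glucose starvation and 5 higher, where 27.7% of all genes were lower and 26.7% higher. At 6 h, 52 were lower and 7 higher, where 32.3% of all genes were lower and 31.5% higher. At 12 h, 43 were lower and 11 higher, where 31.6% of all genes were lower and 32.5% higher. The median log2 fold change, amino acid over glucose starvation, was −0.34, −0.48 and −0.38 for the members and −0.03, −0.01 and 0.03 for all genes tested. Library totals in place of TMM gave 37 lower and 24 higher at 12 h with a median of −0.15, and moved the median of all genes by 0.24 there. Correcting for GC content and transcript length gave 43 lower and 20 higher at 12 h, with a median of −0.23.

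Mrpl15 had 15.6 and 18.1 CPM after 12 h without amino acids, against 51.8 and 49.96 CPM after 12 h without glucose, the largest fall among the members at that time (log2 fold change −1.59, SE 0.08, edgeR adjusted p 2.09e-16). Mrpl52 had 12.8 and 15.4 CPM in amino acid and 35.3 and 38.2 CPM in glucose starvation at 12 h (−1.38, edgeR adjusted p 1.49e-13). For Mrpl12 the levels were 39.8 and 39.7 CPM in amino acid and 100.3 and 104 CPM in glucose starvation (−1.36, edgeR adjusted p 2.14e-17). Mrpl41 differed most at 6 h, with 3.49 and 3.83 CPM in amino acid and 17.8 and 17.8 CPM in glucose starvation (−2.27, SE 0.15, edgeR adjusted p 7.64e-14). In the other direction, Mrpl18 had 71.7 and 73.5 CPM in amino acid and 35.9 and 35.2 CPM in glucose starvation at 12 h (1.03, SE 0.07, edgeR adjusted p 6.1e-14). Mrpl4, which lines the peptide tunnel, had 50.8 and 46.6 CPM in amino acid and 30.6 and 31.3 CPM in glucose starvation (0.66, edgeR adjusted p 3.94e-08). None of these pairs of groups overlapped, which was a condition for naming these members.

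**Figure D3:**
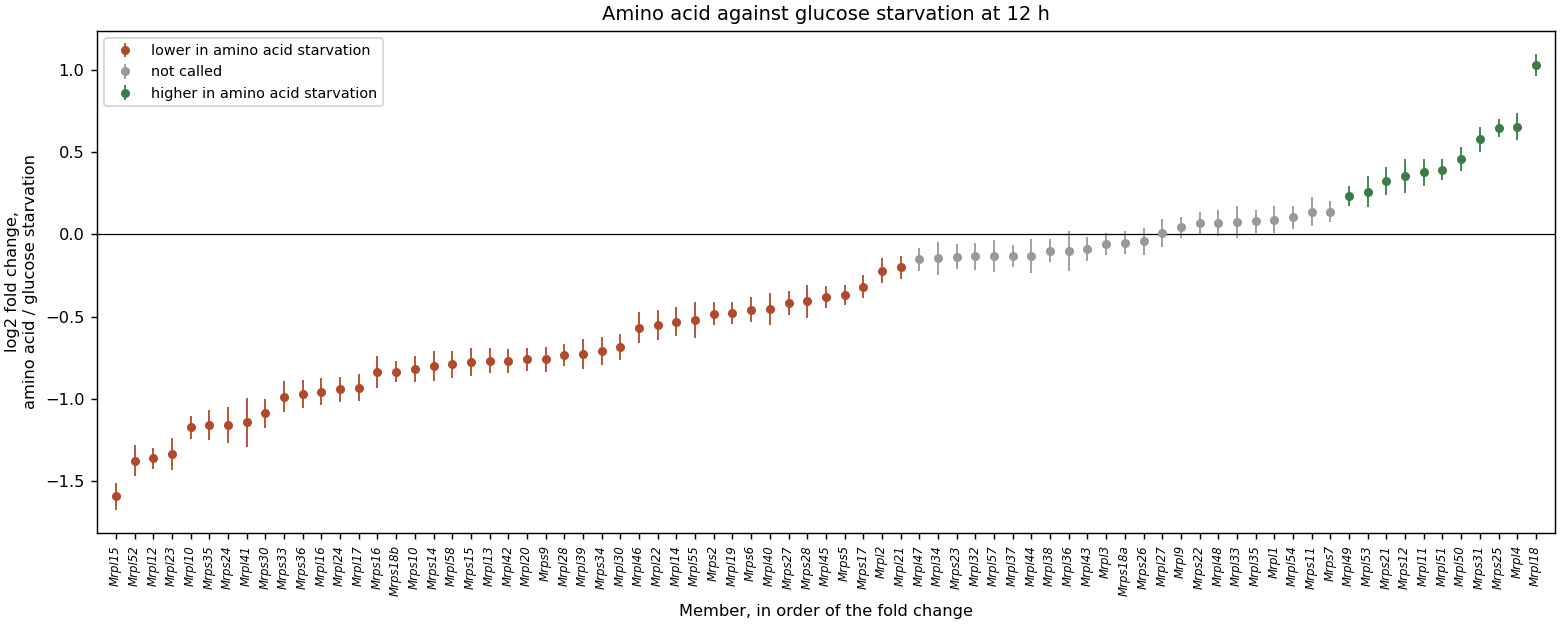
Log2 fold change of each member at 12 h, amino acid over glucose starvation, in rising order, with bars of 1 standard error and colours by the edgeR call. Values run from −1.59 for Mrpl15 to 1.03 for Mrpl18, with 43 members lower and 11 higher in amino acid starvation.

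Over the course of starvation most members that changed went up. Between 12 and 3 h without amino acids, 44 members were higher at 12 h and 15 lower, where 35.5% of all genes were higher and 32.9% lower, and the median log2 fold change was 0.25 for the members and 0.04 for all genes. Without glucose, 40 were higher at 12 h and 12 lower, where 31.8% of all genes were higher and 25.5% lower, with medians of 0.20 and 0.07. The glucose course depended on the library and the genes fitted, since without replicate 1 of 3 h without glucose 31 members were higher and 14 lower with a median of 0.13, and in a fit to genes without overlaps 15 of 36 were higher and 11 lower with a median of 0.03. Library totals gave 58 higher and 5 lower without amino acids, with a median of 0.56, where that scaling moved the median of all genes by 0.31. Mrps23, for example, had 37.8 and 40.8 CPM after 12 h without amino acids, against 22.9 and 24.6 CPM after 3 h (log2 fold change 0.72, SE 0.08, edgeR adjusted p 2.06e-09).

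Mrpl44 rose most between 3 and 12 h without amino acids (log2 fold change 1.31, SE 0.11, edgeR adjusted p 2.85e-11), followed by Mrps26 (0.90, edgeR adjusted p 1.42e-10) and Mrpl2 (0.85, edgeR adjusted p 9.8e-11). Mrpl52, Mrpl20 and Mrpl12 fell most over that time, with log2 fold changes of −0.82, −0.71 and −0.70 (edgeR adjusted p 1.04e-08, 2.04e-10 and 6.28e-11). Without glucose, Mrpl49, Mrps27 and Mrpl9 rose most, with log2 fold changes of 0.81, 0.81 and 0.80 (edgeR adjusted p 5.81e-12, 3.44e-10 and 1.75e-11). Mrpl33, Mrpl51 and Mrpl18 fell most, with −0.93, −0.88 and −0.73 (edgeR adjusted p 2.87e-09, 2.07e-12 and 2.84e-10). Each of these pairs of groups was free of overlap, which was again a condition for naming these members.

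The change over time differed between the starvations for 37 members, tested as the difference of the log2 changes, amino acid minus glucose starvation. For 19 it was positive and for 18 negative, where 21.7% of all genes were called positive and 25.7% negative, and the median was −0.07 for the members and −0.02 for all genes. Mrpl18 had the largest positive difference, since it rose by 0.56 without amino acids and fell by 0.73 without glucose (difference 1.29, SE 0.10, edgeR adjusted p 3.65e-12). Mrps21 (1.14), Mrpl51 (1.01) and Mrpl44 (0.92) followed. Mrpl24 (−0.90), Mrpl12 (−0.87) and Mrpl52 (−0.73) had the largest negative differences. The balance depends on scaling, as library totals gave 36 positive and 7 negative with a median of 0.18, and the GC and length correction gave 28 positive and 17 negative with a median of 0.01. It also depended on the libraries of 3 h without glucose, with 23 positive and 13 negative without replicate 1 and 16 positive and 26 negative without replicate 2. The median lay between −0.12 and −0.01 when a library was left out.

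A few members have known roles or relatives beyond the particle. Mrpl58, a peptidyl-tRNA hydrolase that frees stalled ribosomes, had 16.4 and 16.1 CPM after 3 h, 15.9 and 14.6 CPM after 6 h and 21.6 and 22.0 CPM after 12 h without amino acids, against 30.7 and 29.0 CPM in control cells. It was low in all of these libraries (log2 fold changes −0.88, −0.97 and −0.45, edgeR adjusted p 5.8e-10, 4.1e-11 and 2.24e-05), and without glucose it was higher at 12 h, at 35.2 and 40.5 CPM (log2 fold change 0.34, edgeR adjusted p 0.000754). The paralogues Mrps18a and Mrps18b occupy different subunits. Mrps18a stayed between 36.9 and 46.6 CPM in all 14 libraries, with log2 fold changes against the control from −0.05 to 0.21, while Mrps18b ranged from 50.8 to 108 CPM. The calls of Mrps18a at 12 h of either starvation (edgeR adjusted p 0.0439 and 0.0114) were lost under several settings. Mrps18c, the remaining paralogue, lies outside the symbol rule.

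The fold changes were also set beside the length and the shared exons of the counted transcripts. The 25 members with a counted transcript under 1 kb had 20, 21 and 19 lower and 0, 0 and 4 higher after 3, 6 and 12 h without amino acids, with medians of −0.49, −0.92 and −0.66. The 24 members of 2 kb or longer had 17, 15 and 11 lower and 2, 6 and 8 higher, with medians of −0.32, −0.26 and −0.09. Beside these counts, 32.1%, 33.3% and 32.0% of all genes were lower and 27.9%, 32.3% and 34.9% higher. Across the 77 members Spearman's rho between counted length and log2 fold change was 0.18, 0.32 and 0.33 at these times and −0.03, 0.37 and 0.36 after 3, 6 and 12 h without glucose, and across 17346 tested genes it lay between −0.06 and 0.08 in the same comparisons. With GC content it was −0.37 to −0.11 across the members and −0.16 to −0.08 across the tested genes in these 6 comparisons. These are relations across genes, which share libraries and are not independent replicates. When fold changes were corrected for GC and transcript length, 51, 47 and 38 members were lower after 3, 6 and 12 h without amino acids, and the medians were −0.28, −0.32 and −0.15.

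**Figure D4:**
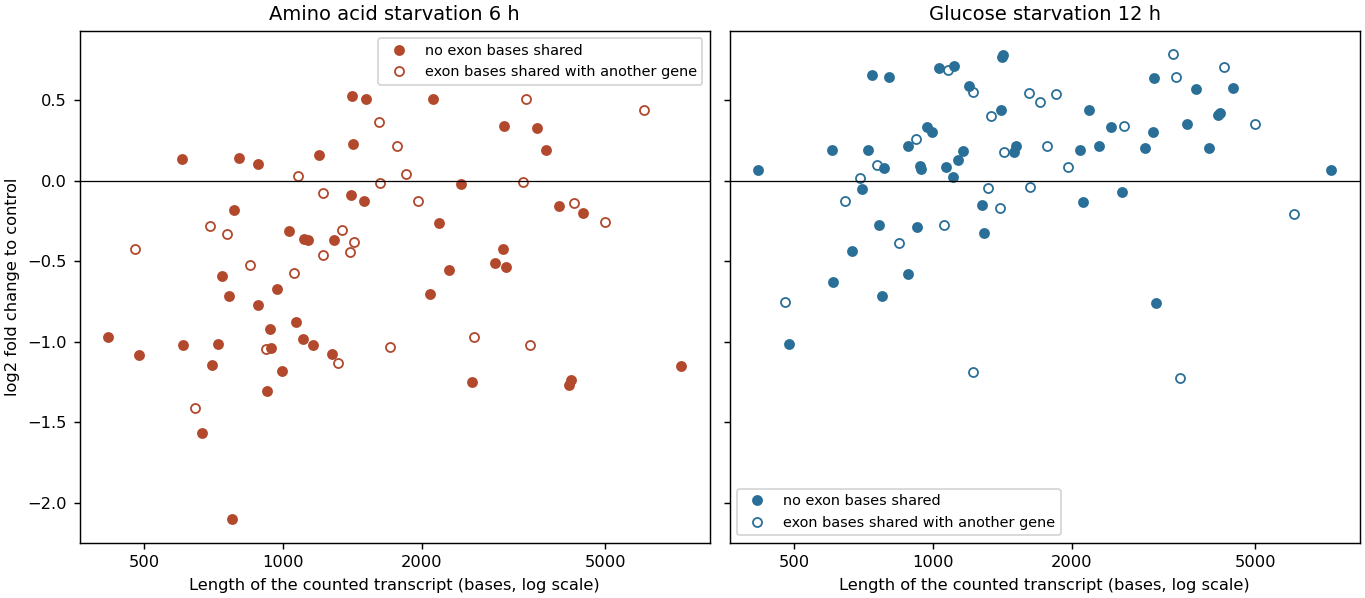
Log2 fold change against control cells of the 77 members after 6 h without amino acids (left) and after 12 h without glucose (right) against the length of the counted transcript in bases on a log scale, with open circles for members that share exon bases with another gene. After 6 h without amino acids none of the 25 members under 1 kb was called higher, where 32.3% of all genes were. In both panels filled and open circles cover much the same range.

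Exon bases are shared with another annotated gene by 27 members, and for these reads of both genes may have been counted. The share was 100% of the counted bases for Mrpl53, 75.6% for Mrps25 (with Nr2c2), 62.7% for Mrps34 (with Mapk8ip3), 59.1% for Mrps18b and 43.6% for Mrpl24 (with Rrnad1), so their values are uncertain. Mrps25, the member with the highest fold change after 3 h without amino acids (log2 fold change 0.22, edgeR adjusted p 0.00097), is in this group. Among the 50 members that share none, 37, 35 and 28 were lower and 1, 7 and 14 higher after 3, 6 and 12 h without amino acids, with medians of −0.42, −0.55 and −0.36. Of all genes, 32.1%, 33.3% and 32.0% were lower and 27.9%, 32.3% and 34.9% higher at these times. After 12 h without glucose 26 of these 50 members were higher and 9 lower, with a median of 0.19. Of all genes, 30.4% were higher and 28.0% lower there. In a fit to genes without any overlap, which held 36 members, the medians after 3, 6 and 12 h were −0.35, −0.58 and −0.40 without amino acids and 0.03, 0.11 and 0.17 without glucose.

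Many members start close to a gene on the other strand, and 23 have a promoter window that overlaps such a window. The pair of Mrps11 and Mrpl46, whose windows overlap by 141 bases in the stretch shown for Mrps11, belongs to the family on both sides. Mrps11 had 19.7 and 19.5 CPM after 3 h without amino acids, against 23.8 and 27.6 CPM in control cells, and Mrpl46 had 14.6 and 15.3 CPM, against 19.9 and 18.5 CPM, and both were called lower at 3 and 6 h. Without glucose Mrps11 was lower at 3, 6 and 12 h (log2 fold changes −0.32, −0.41 and −0.28), and Mrpl46 had log2 fold changes of −0.08, 0.07 and 0.13 that were not called. Of the counted exon bases of Mrps11, 16.4% overlap Mrpl46 on the opposite strand, so reads of Mrpl46 may be in its count. Other pairs also had unlike values. At 12 h without glucose Mrpl18 was at −1.19 and its partner Tcp1, a chaperonin subunit, at 0.06, and 11.6% of the counted exon bases of Mrpl18 overlap Tcp1. Mrps12 was at −0.58 and its partner Sars2, the mitochondrial seryl-tRNA synthetase, at 0.40 (edgeR called higher). Of 22 such pairs, both genes were called in 12 after 6 h without amino acids, 7 of them in the same direction, and in 8 after 12 h without glucose, 5 in the same direction. With 33.3% of all genes called lower and 32.3% higher in the first of these comparisons and 28.0% and 30.4% in the second, nothing particular to the pairs can be read from these counts.

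The rest of the mitochondrial translation system was described with lists of genes. Their counts stand beside the shares of all genes at 3, 6 and 12 h. Without amino acids, 32.1%, 33.3% and 32.0% were lower and 27.9%, 32.3% and 34.9% higher. Without glucose, 23.1%, 24.2% and 28.0% were lower and 20.3%, 23.3% and 30.4% higher. The 6 mitoribosome proteins with other symbols (Dap3, Ptcd3, Chchd1, Aurkaip1, Gadd45gip1 and Mrps18c) had 5, 5 and 3 lower and 0, 0 and 1 higher after 3, 6 and 12 h without amino acids, and 0 lower and 1, 1 and 4 higher without glucose. Gadd45gip1, a large subunit protein, had 73.9 and 76.9 CPM after 3 h without amino acids, against 107 and 98.9 CPM in control cells (log2 fold change −0.45, edgeR adjusted p 1.48e-06). Of 25 genes for mitoribosome assembly and modification of its RNA, 13, 7 and 4 were lower and 5, 10 and 17 higher after 3, 6 and 12 h without amino acids, with medians of −0.30, 0.18 and 0.38. At 6 h the counts of these genes were not far from the shares of all genes. At 12 h these genes stood mostly above the control while most of the ribosomal proteins stood below it. Noa1, a GTPase needed for the small subunit, had 64.6 and 61.2 CPM at 12 h, against 41.8 and 38.9 CPM in control cells (log2 fold change 0.64, edgeR adjusted p 2.82e-09).

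The counts of the lists here and in the next paragraph stand beside the same shares of all genes. Without amino acids these were 32.1%, 33.3% and 32.0% lower and 27.9%, 32.3% and 34.9% higher after 3, 6 and 12 h. Without glucose they were 23.1%, 24.2% and 28.0% lower and 20.3%, 23.3% and 30.4% higher. Of 15 mitochondrial translation factors, 11, 10 and 4 were lower and 2, 2 and 5 higher after 3, 6 and 12 h without amino acids. Tufm, the elongation factor that the stalk recruits with aminoacyl-tRNA, had 39.4 and 36.5 CPM at 12 h, against 114 and 106 CPM in control cells (log2 fold change −1.54, SE 0.06, edgeR adjusted p 6e-19). Lrpprc, which stabilises mitochondrial mRNAs, went the other way at 196 and 200.2 CPM, against 150 and 148 CPM (0.41, edgeR adjusted p 4.2e-08). At 12 h the counts of the translation factors were close to the shares of all genes. Of 17 mitochondrial aminoacyl-tRNA synthetases, 11, 8 and 8 were lower and 1, 4 and 4 higher. After 12 h without glucose 7 translation factors and 10 synthetases were higher and 3 of each lower. Among 12 regulators of mitochondrial gene expression, 8, 10 and 7 were higher and 2, 2 and 5 lower without amino acids, and 4, 6 and 7 higher and 3, 5 and 2 lower without glucose. Gabpa, the DNA-binding subunit of the ETS factor GABP, had 160.5 and 159 CPM after 6 h without amino acids, against 76.7 and 79.3 CPM in control cells (1.04, edgeR adjusted p 1.63e-14). Nrf1 had 31.1 and 32.7 CPM after 3 h without glucose, against 57.6 and 49.8 CPM (−0.75, edgeR adjusted p 1.45e-09). Yy1 had 58.4 and 57.0 CPM after 12 h without glucose, against 97.9 and 94.4 CPM (−0.74, edgeR adjusted p 7.95e-11). Of 10 mitochondrial chaperones and proteases, 9 were higher and 0 lower after 12 h without glucose, with the protease Lonp1 at 539.6 and 544 CPM against 144 and 115 CPM in control cells (2.06, edgeR adjusted p 6.54e-20).

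Most ribosomal proteins of the cytosol were not called after 3 h without amino acids. After 3 h without amino acids 4 of 78 were lower and 9 higher with a median of 0.04, and the mitochondrial members had a median of −0.36. By 12 h 47 of the 78 were lower and 4 higher, and after 12 h without glucose 71 were higher and 0 lower with a median of 0.44, against 39 higher and 16 lower of the 77 mitochondrial ones. Amino acid against glucose starvation at 12 h gave 78 of 78 lower in the cytosolic and 43 of 77 in the mitochondrial set. In that comparison 31.6% of all genes were lower and 32.5% higher. The cytosolic set summed to 47650 and 48310 CPM after 12 h without amino acids and 76490 and 80080 CPM after 12 h without glucose, against 59560 and 55400 CPM in control cells. Nuclear genes of the respiratory chain and ATP synthase were lower without amino acids in 52, 69 and 57 of 75 cases at 3, 6 and 12 h, and after 12 h without glucose 23 were lower and 19 higher. Of the 13 mitochondrial mRNAs, which the mitoribosome translates, 9, 2 and 10 were lower after 3, 6 and 12 h without amino acids and 0, 2 and 0 higher, and without glucose 10, 7 and 1 were higher and 0, 0 and 7 lower. The mitoribosome's own RNAs, mt-Rnr1 and mt-Rnr2, summed to 435 and 514 CPM after 12 h without amino acids and 1035 and 1029 CPM after 12 h without glucose, against 689 and 740.2 CPM in control cells. Whether the libraries were selected for poly(A) RNA or depleted of ribosomal RNA is not given in the sources used here.

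**Figure D5:**
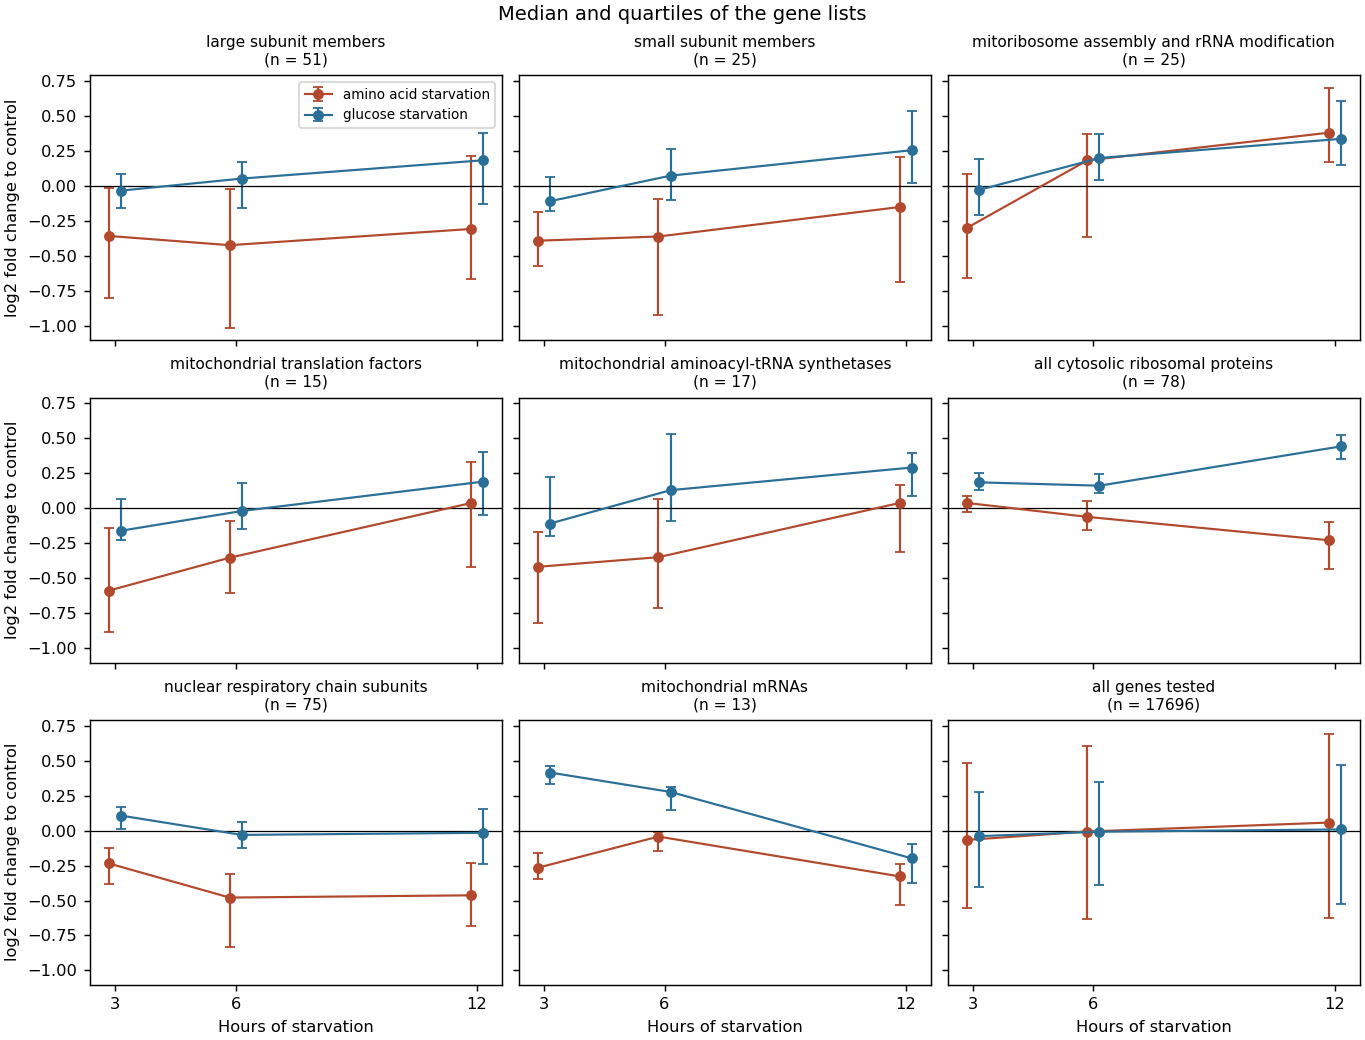
Median log2 fold change against control cells (points) with the lower and upper quartile of the genes (bars) for 9 lists at 3, 6 and 12 h of amino acid and glucose starvation. The medians of both subunits of the mitoribosome stay under 0 without amino acids. The median of the assembly genes reaches 0.38 after 12 h without amino acids, and that of the cytosolic ribosomal proteins 0.44 after 12 h without glucose.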

How the data were processed

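Total RNA of MEFs was measured in 14 libraries. The authors deposited raw read counts by transcript, as whole numbers, in one table with a column for each library and another (deposited) column for length in bases. Per the submitters' processing notes, STAR, bedtools and the build GRCm39 were used, and neither the versions nor the strand setting, the annotation and the rules of counting are given in the sources used here. Groups came from the sample labels, which give the agent of the glucose libraries only as glucose, with the titles and design text giving the starvation. Of 67457 table lines, 58 had no gene name, with 0% of all reads. A gene with several transcripts, as were 32 members, was represented by the transcript with the most reads. Such transcripts share reads, so that a sum could count them more than once.

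Counts were filtered with filterByExpr, scaled with TMM and fitted in edgeR 4.0.16 (R 4.3.3, limma 3.58.1; glmQLFit, robust) with 7 group means, which leaves 7 residual degrees of freedom, pooled over groups (median prior 20.9). The 12 two-sided comparisons were each adjusted by Benjamini-Hochberg over 17696 genes. Lists are described by counts and medians without a test. The alternatives were RLE factors, library totals, DESeq2 1.42.0, other filters, only the groups compared, a replicate block, sums of transcripts, a GC and length correction, genes without overlaps, and leaving out each library. GC content was known for 98% of tested genes. The reference at hand (GENCODE and RefSeq, GRCm38) gave lengths, overlaps and promoter windows, and the deposited lengths of all 77 members equalled it. The fit was tested on simulated counts. Replicates differed by more than counting noise (chi-square per degree of freedom at least 3.46).

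The members, the gene lists and the rule for named genes were chosen with earlier results of these data known. The rule takes a panel of 10 members, the 3 highest and 3 lowest called members without overlap per comparison, the 3 highest and lowest per kilobase, and members called in all 6 comparisons with the control. It also takes up to 3 called genes per other list and comparison with the smallest p. Mrps11 and Mrpl46, Mrpl13, Mrpl48, Mrpl53, Mrps23, Mrps34, the divergent partners and the overlapping neighbours were chosen after their values were seen. Intervals of counting error are not given, since the spread between libraries exceeds it.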

Additional observations from a re-analysis of the deposited data

Results flagged for a closer look

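The change between 3 and 12 h differed between amino acid and glucose starvation for 37 members (edgeR test of the difference, adjusted p under 0.05). The values are differences of log2 changes, amino acid minus glucose starvation. Among the named members the difference was positive for Mrpl18 (1.29), Mrps21 (1.14), Mrpl51 (1.01), Mrpl44 (0.92), Mrpl41 (0.86), Mrpl4 (0.85), Mrpl11 (0.68), Mrps12 (0.68), Mrpl33 (0.48), Mrpl50 (0.45), Mrps31 (0.44), Mrpl54 (0.38) and Mrps25 (0.24). It was negative for Mrpl24 (−0.90), Mrpl12 (−0.87), Mrpl52 (−0.73), Mrpl23 (−0.67), Mrps30 (−0.66), Mrps9 (−0.55), Mrps27 (−0.50), Mrpl20 (−0.45), Mrps14 (−0.45), Mrpl9 (−0.43), Mrpl1 (−0.37), Mrpl28 (−0.36), Mrps36 (−0.30) and Mrpl38 (−0.27). The calls of Mrpl1 and Mrps14 were lost without replicate 1 of 3 h without glucose (−0.31 and −0.32), and that of Mrps25 without replicate 2 of 12 h without glucose (0.20). Those of Mrpl38 and Mrps36 were lost without any of several libraries, with values of −0.26 to −0.15 and −0.33 to −0.26.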

How the results depend on the processing

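Leaving out each library moved the counts of called members to between 50 and 56, 59 and 62, and 59 and 61 for the amino acid comparisons with the control (3, 6 and 12 h), to between 15 and 24, 26 and 32, and 45 and 51 for glucose starvation, to between 47 and 59, 56 and 58, and 52 and 54 between the starvations, to between 50 and 57 and 45 and 53 over time, and to between 34 and 42 for the difference. A fit to genes without overlaps held 36 members and called 28, 34, 32, 9, 15, 25, 30, 29, 27, 29, 26 and 24 in these 12 comparisons, fewer by construction. For 3 h of glucose starvation, library totals called 45 members, and fitting only the groups compared called 13. With the replicate block, 59, 64 and 64 members were called in the amino acid, 23, 37 and 56 in the glucose comparisons with the control, and 59, 62, 56, 62, 54 and 41 in the others, and no call of a named member was lost. The labels give the replicate numbers no shared source, and same-numbered libraries of 21 pairs of groups deviated with correlations of −0.09 to 0.13 over genes, so the fit without the block was kept. The summed member level was nevertheless higher in replicate 2 than in replicate 1 in all 6 starved groups, and lower in the control. DESeq2 called 53, 62, 62, 17, 31 and 52 members against the control. The sign turned for Mrps18b after 12 h of amino acid starvation (0.026, GC and length correction), Mrpl2 between the starvations at 12 h (0.018 with library totals and 0.021 with the GC and length correction), and Mrpl28 and Mrps30 between 12 and 3 h without amino acids (0.067 and 0.023, library totals). The cause of these changes was not tested. Over the other settings, 4347 values of named members kept their side of the threshold, 147 lost and 145 gained a call, and over the left-out libraries 1979 kept it, 127 lost and 26 gained one.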
